A study of Mus musculus with 4 samples.

Results

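Genes of the innate immune sensing machinery were followed in the infarcted mouse heart with and without KDM5B, a histone demethylase that removes methyl groups from lysine 4 of histone H3. The genes were the Toll-like receptors Tlr1, Tlr2, Tlr3, Tlr4, Tlr5, Tlr6 and Tlr9, their shared adaptor Myd88 and the co-receptor Cd14. They were chosen by name, as every non-control probe that the array files assign to 1 of these symbols, which gave 11 probes for 9 genes out of 41174 probes on the array. Tlr3 and Tlr4 have 2 probes each, and these are called the brighter and the dimmer probe after their mean signal. A probe was tested where both arrays of a genotype, WT or KO, exceeded background clearly, which all 11 member probes did, and 28304 probes were tested in all.

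RNA came from the left ventricle of mice labelled male, which per the methods were 8 to 10 weeks old at surgery, on day 7 after a permanent tie around the left anterior descending artery. The groups were 2 arrays with RNA of wild-type C57BL/6 mice, named WT 2 and WT 3, and 2 with RNA of KDM5B-KO mice, named KO 2 and KO 3. The KO line was made with CRISPR/Cas9 by deleting the part of Kdm5b that encodes the catalytic JmjC domain. This shifts the reading frame in every cell of the animal. The RNA on all 4 arrays came from infarcted hearts, so no uninjured heart entered the comparison. The labels do not say whether an array held RNA of 1 animal or a pool, and the p-values below therefore describe the spread between these arrays.

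Toll-like receptors recognise microbial molecules and molecules released from injured cells, which makes them among the first sensors of necrotic myocardium. TLR2 works at the cell surface as a pair with TLR1 or TLR6 and binds lipoproteins, TLR4 binds lipopolysaccharide with the help of CD14 and MD-2, and TLR5 binds flagellin, while TLR3 and TLR9 sense double-stranded RNA and unmethylated CpG DNA inside endosomes. All of them except TLR3 signal through MYD88 to the IRAK kinases, TRAF6 and NF-kappa B, and the receptors are carried mainly by macrophages, neutrophils and other leukocytes, with some also found on endothelial cells, fibroblasts and cardiomyocytes.

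Tlr1, Tlr2 and Tlr6 are related in sequence, so the probes were first compared with each other. The match of a probe to the rest of another member's transcript was not tested. Each probe is 60 bases long. The Tlr1 probe lies at chr5:65316115-65316174 and the Tlr6 probe 28.2 kb away at chr5:65344365-65344424, both on the minus strand of mm9, and the Tlr2 probe lies at chr3:83640344-83640403, also on the minus strand. Over the 53 pairs of probes from different members, the best ungapped window of 30 bases held a median of 15 equal bases. The pair most alike was Tlr1 and Tlr2, with 22 equal bases out of 30 and no shared run over 7 bases. These 2 stretches are shown because they are the closest likeness among the members, and capitals mark the bases that are equal in both.
Tlr1 probe, from base 1: CaAGCAtGgAcTtTTTTGGGcAAAcCTaAG
Tlr2 probe, from base 14: CcAGCAgGaAgTgTTTTGGGtAAAtCTgAG
The next pair reached 18 equal bases, the Tlr1 and Tlr6 probes had 16 of 30 with no shared run over 5 bases, and no pair of different members shared a run over 8 bases.

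Windows around the transcription start sites were taken from RefSeq on GRCm38.p6 for 7 members, namely Tlr1, Tlr2, Tlr3, Tlr5, Tlr6, Tlr9 and Myd88, with 9 windows in all because Tlr1 and Tlr6 have 2 starts. Tlr4 had no window there, and Cd14 was left out of the search. Each window spans 250 bases before to 50 bases after an annotated start. They were searched on both strands for GAGGAA (the core bound by PU.1, a factor of myeloid cells), TGANTCA (AP-1), TGACGTCA (the cyclic AMP response element), TATAAA (the TATA box), the kappa B motif and the interferon-stimulated response element, with overlapping hits counted separately. The windows of Tlr1, Tlr6 and Tlr2 are shown because these genes had like signals over the 4 arrays, and that of Tlr9 because its signal was almost the same on every array, as described below. Of the 2 windows of Tlr1 and of Tlr6, only that with motif hits is shown. Capitals mark motif hits.
Tlr1, chr5:64933509-64933808, minus strand, with 1 GAGGAA hit: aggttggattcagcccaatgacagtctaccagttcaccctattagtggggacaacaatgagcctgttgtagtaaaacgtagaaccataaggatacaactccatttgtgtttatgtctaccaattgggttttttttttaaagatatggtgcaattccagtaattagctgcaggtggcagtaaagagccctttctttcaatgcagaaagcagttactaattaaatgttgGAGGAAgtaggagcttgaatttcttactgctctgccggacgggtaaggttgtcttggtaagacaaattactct
Tlr6, chr5:64959999-64960298, minus strand, with 3 TATAAA hits read on the other strand: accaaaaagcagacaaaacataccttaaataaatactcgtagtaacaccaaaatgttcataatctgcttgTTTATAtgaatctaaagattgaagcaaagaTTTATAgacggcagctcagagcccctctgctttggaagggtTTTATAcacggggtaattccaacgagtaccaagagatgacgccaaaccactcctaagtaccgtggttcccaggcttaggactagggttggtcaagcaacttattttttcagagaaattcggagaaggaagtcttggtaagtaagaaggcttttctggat
Tlr2, chr3:83841559-83841858, minus strand, with 3 kappa B hits: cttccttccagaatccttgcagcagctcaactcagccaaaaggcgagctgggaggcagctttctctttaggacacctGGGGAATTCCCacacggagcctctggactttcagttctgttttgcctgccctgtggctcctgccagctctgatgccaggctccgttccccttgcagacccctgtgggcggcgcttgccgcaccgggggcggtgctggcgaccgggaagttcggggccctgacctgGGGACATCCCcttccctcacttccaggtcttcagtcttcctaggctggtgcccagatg
Tlr9, chr9:106222348-106222647, plus strand, with 2 GAGGAA hits, 1 of them on the other strand, and 1 TGANTCA hit: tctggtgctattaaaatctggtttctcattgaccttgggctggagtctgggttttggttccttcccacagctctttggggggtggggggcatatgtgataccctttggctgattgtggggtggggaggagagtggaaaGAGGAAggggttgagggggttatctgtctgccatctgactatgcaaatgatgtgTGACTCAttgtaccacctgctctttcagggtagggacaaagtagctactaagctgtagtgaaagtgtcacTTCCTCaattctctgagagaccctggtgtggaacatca
Besides the Tlr2 window, that of Tlr3 held the kappa B motif, once, and 4.51% of all 32851 RefSeq windows hold it. GAGGAA occurs in 28.3%, TATAAA in 13.6% and TGANTCA in 7.81% of them. The Myd88 window had 2 TATAAA hits. No motif was found in both the Tlr1 and the Tlr2 windows. The Tlr5 window and the windows of Tlr1 and Tlr6 that are not shown held none of the 6. TGACGTCA and the interferon-stimulated response element, present in 1.79% and 1.6% of all windows, were in none of the 9.

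Across the series, an array had 68.15% to 72.04% of its probes well above background, and no saturated non-control spot. The 2 Kdm5b probes had KO minus WT differences of -0.996 ± 0.400 and -1.19 ± 0.446 (log2, SE, limma adjusted p = 0.9999), with both KO arrays below both WT arrays, and their place relative to the deleted bases was not determined. Xist, transcribed from the inactive X chromosome of females, read 14.13 on WT 2, 13.24 on KO 2, 1.92 on WT 3 and 2.01 on KO 3 as log2 signal before scaling, and the Y-linked gene Ddx3y was high on WT 3 and KO 3 alone. The arrays numbered 2 therefore went against the label male, and each result is given over all 4 arrays and within each number. The KO 2 array also stood apart, with the lowest scaled signal of the 4 arrays at 41.4% of tested probes. Its 75th percentile of processed signal was 607.6, against 876.3 to 976.1 on the other arrays. Processed signals given below are before scaling and include this array-wide gap.

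The receptors of lipoproteins were lower on KO 2 than on every other array. Levels are given as log2 of the processed signal over the array's 75th percentile, so a probe at that percentile has the value 0, and differences are KO minus WT. Tlr1, the partner of TLR2 for triacylated lipopeptides, measured -0.54 on WT 2 and -0.28 on WT 3, against -2.45 on KO 2 and -0.18 on KO 3. KO 2 lay 1.91 log2 units under WT 2, while KO 3 was the highest array, so the genotypes overlapped. In processed signal the same spot read 603.1 and 801.3 on the WT arrays, 111.3 on KO 2 and 779.7 on KO 3. Averaged over the arrays the Tlr1 difference was -0.90 ± 0.86 (SE, 2 against 2 arrays, limma adjusted p = 0.9999), and without KO 2 it was 0.23.

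Tlr6, the partner of TLR2 for diacylated lipopeptides, measured -1.18 on WT 2 and -0.82 on WT 3, against -2.81 on KO 2 and -0.58 on KO 3. It had the same order of arrays as Tlr1, with KO 2 lowest and KO 3 highest. The difference was -0.69 ± 0.85 (SE, limma adjusted p = 0.9999), composed of -1.63 within number 2 and 0.24 within number 3, and it was 0.42 without KO 2. Tlr2, the common subunit, measured 1.79 on WT 2 and 2.02 on WT 3, against 0.40 on KO 2 and 1.94 on KO 3. KO 3 lay between the 2 WT arrays, and KO 2 lay 1.39 under the lower of them. The Tlr2 difference was -0.74 ± 0.60 (SE, limma adjusted p = 0.9999) and became 0.031 without KO 2.

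Tlr2 is printed in 10 spots on each array, which shows how well an array repeats itself. The processed signal ranged over the spots from 760.7 to 837.4 on KO 2 and from 2927.9 to 3148.0 on WT 2, and the SD of log2 signal between spots was 0.044 and 0.039. The gap between these arrays was thus many times the spread between spots of an array, whereas the spread between the 2 KO arrays (SD 1.09) exceeded the difference between genotypes. Myd88 and the brighter Tlr4 probe are also printed in 10 spots, with an SD of 0.036 to 0.073 between spots of an array.

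Cd14, the co-receptor that hands lipopolysaccharide to TLR4 and also serves TLR2, measured 3.16 on WT 2 and 2.93 on WT 3, against 1.65 on KO 2 and 3.15 on KO 3. Its KO 3 array was level with WT 2, and KO 2 lay 1.28 under the lowest of the other arrays. The difference was -0.64 ± 0.59 (SE, limma adjusted p = 0.9999), from -1.51 within number 2 and 0.22 within number 3, and it was 0.10 without KO 2. Myd88 had the same pattern at a smaller size. It measured 1.63 on WT 2 and 1.78 on WT 3, against 0.98 on KO 2 and 1.81 on KO 3, a difference of -0.31 ± 0.37 (SE, limma adjusted p = 0.9999), and 0.11 without KO 2.

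Tlr5, the flagellin receptor, gave a dim signal. It measured -3.94 on WT 2 and -3.36 on WT 3, against -5.00 on KO 2 and -3.12 on KO 3, with KO 2 again the lowest array and KO 3 the highest. Its processed signal was 19.0 on KO 2 against 56.9 to 101.9 on the other arrays. The difference was -0.41 ± 0.75 (SE, limma adjusted p = 0.9999), but 0.53 without KO 2 and 0.15 with normexp background correction, so it had no settled direction.

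**Figure D1:**
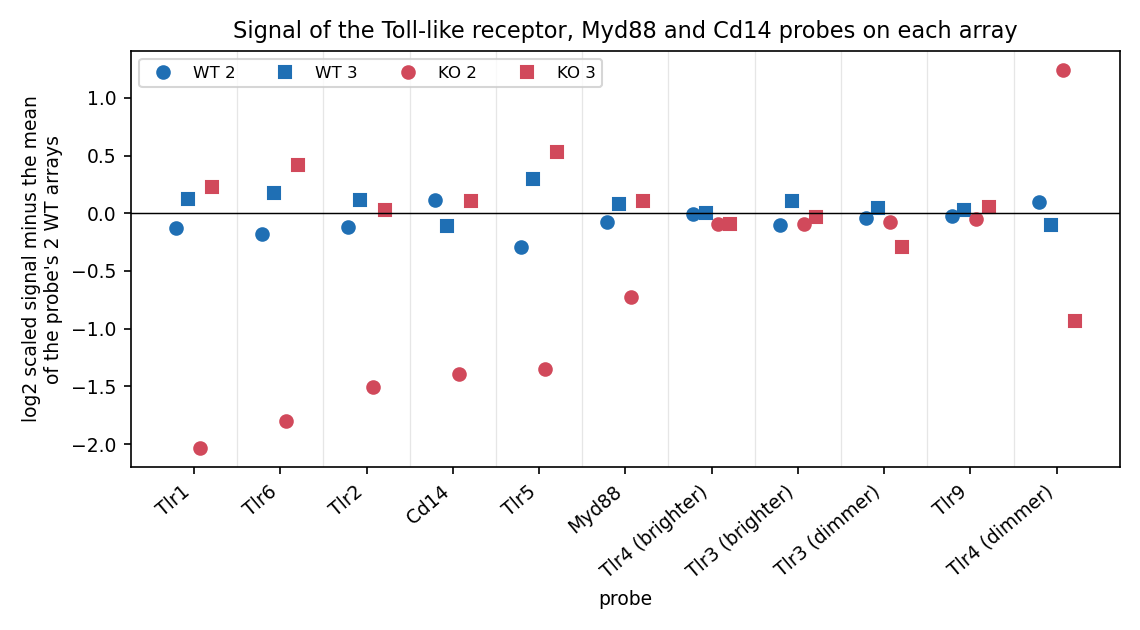
Scaled log2 signal of the 11 probes on each array (vertical axis, minus the mean of the probe's 2 WT arrays), with WT arrays in blue, KO arrays in red, circles for number 2 and squares for number 3. KO 2 lies far below the other 3 arrays for Tlr1, Tlr6, Tlr2, Cd14 and Tlr5 and less far for Myd88, while Tlr3, Tlr9 and the brighter Tlr4 probe are close together on all 4 arrays.

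Tlr3 and Tlr9, the members that act in endosomes, did not share this pattern. Tlr7, an endosomal receptor outside the members, lay 1.25 log2 units lower on KO 2 than on any other array, as given below. Whether location in the cell goes with the pattern was not tested. Tlr9 measured 1.49 on WT 2 and 1.55 on WT 3, against 1.47 on KO 2 and 1.58 on KO 3, a span of 0.11 over the 4 arrays, and only 1.36% of tested probes had a smaller span. The genotypes overlapped, and the difference was 0.0012 ± 0.21 (SE, limma adjusted p = 0.9999), a value too small to have a direction. It was between -0.055 and -0.028 under 5 alternatives, among them quantile normalization.

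Tlr3, the sensor of double-stranded RNA that signals through TICAM1 in place of MYD88, was read by 2 probes whose starts lie 280 bases apart on chromosome 8. The brighter probe measured -3.13 on WT 2 and -2.92 on WT 3, against -3.12 on KO 2 and -3.06 on KO 3, and the dimmer probe -3.06, -2.98, -3.10 and -3.32. KO 2 was within the range of the WT arrays on the brighter probe and 0.04 under WT 2 on the dimmer one. The differences were -0.06 ± 0.22 and -0.19 ± 0.22 (SE, limma adjusted p = 0.9999 for both), and both turned positive with normexp background correction, at 0.17 and 0.10, where the median of all tested probes also moved from 0.017 to 0.13.

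Tlr4, the lipopolysaccharide receptor, was nearly constant on its brighter probe, which lies at chr4:66503724-66503782 and is printed in 10 spots. It measured -0.0084 on WT 2 and -0.0038 on WT 3, against -0.095 on KO 2 and -0.10 on KO 3. Both KO arrays were below both WT arrays, yet the gap of -0.09 ± 0.20 (SE, limma adjusted p = 0.9999) was 1.07-fold and 0.919% of tested probes had a smaller span over the arrays. The dimmer probe, which the files assign to a different transcript 86.8 kb away, did not follow it. It measured -4.43 on WT 2 and -4.62 on WT 3, against -3.28 on KO 2 and -5.46 on KO 3, and it was not well above background on KO 3. Its difference was 0.16 ± 0.82 (SE, limma adjusted p = 0.9999), with KO 2 the highest array, and -0.93 without KO 2. As the 2 probes disagreed, the mean of both for Tlr4 was 0.032, of the opposite sign to the brighter probe.

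Counted over the 11 probes, none passed an adjusted p under 0.05 with a fold change over 2, where the same rule called 0% of all tested probes. None had an unadjusted limma p under 0.05, against 1.45% of all tested probes. No member probe had a fold change over 2 between the genotype means, compared with 3.35% of all probes in either direction and 2.35% lower in KO. Both KO arrays were below both WT arrays for 2 member probes, the brighter Tlr4 and the dimmer Tlr3, against 10.9% of all probes, and above them for 0, against 13.1%. The difference was negative for 9 of 11 probes, where 47.7% of all probes were lower in KO, and for 4 of 11 without KO 2. Taken by array, 7 of 11 were lowest on KO 2, against 41.4% of all probes, with Tlr9 among them by only 0.026 log2 units. On KO 2, 5 lay more than 1 log2 unit under every other array, which 7.10% of all probes did. With 2 arrays against 2, an exact permutation test of a single gene cannot give a two-sided p under 0.333.

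Within the numbers the picture divided. KO 2 was lower than WT 2 for 9 of 11 member probes (48.9% of all), and by more than 2-fold for 5 of them, Tlr1, Tlr2, Tlr5, Tlr6 and Cd14, while 8.84% of all tested probes were lower by that much. It was higher by more than 2-fold for 1, the dimmer Tlr4 probe, against 6.19% of all, so that 6 of 11 were past 2-fold in either direction (15.0% of all). KO 3 was lower than WT 3 for 5 of 11 (48.0% of all) and differed by more than 2-fold for 0, against 1.78% of all tested probes lower by that much and 4.01% in either direction. The 5 probes that were past 2-fold lower in number 2 ran from -0.08 to 0.24 in number 3. Each of these comparisons holds 1 array of each genotype and has no replicate check, and the 2 numbers differed in sign for 8 of 11 probes, where 53.4% of all probes did. The number 3 array was above the number 2 array in both genotypes for 7 of 11, against 39.3% of all.

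**Figure D2:**
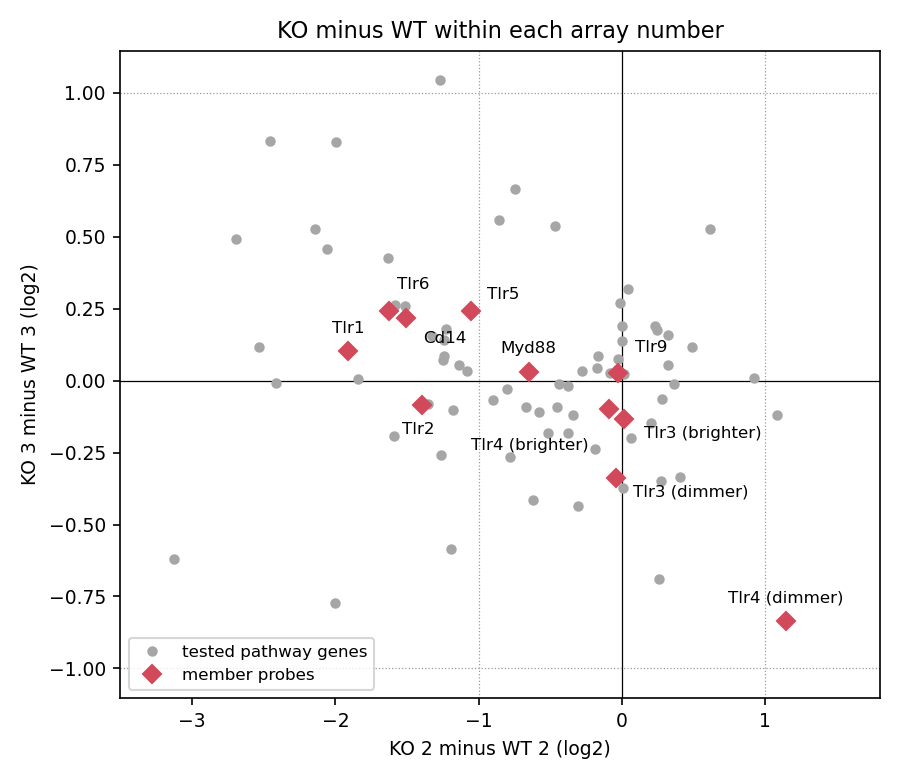
KO 2 minus WT 2 (horizontal axis, log2) against KO 3 minus WT 3 (vertical axis, log2) for the 11 member probes in red and the 69 tested pathway genes in grey, with dotted lines at a 2-fold difference. There are 5 member probes left of the line at -1 and none beyond 2-fold on the vertical axis.

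The profile over the arrays was compared between members as the root mean square difference of their log2 signals, each gene first centred on its own mean. Tlr1 and Tlr6, neighbours on chromosome 5, differed by 0.11 log2 units, and Tlr2 and Cd14, which lie on different chromosomes, by 0.17. Among Tlr3, Tlr4 and Tlr9, read by their brighter probes, the differences were 0.06 to 0.08. Between Tlr1 and Tlr3 the difference was 0.89 and between Tlr2 and Tlr9 it was 0.63. Myd88 lay between, at 0.30 from Tlr3 and from Tlr9, 0.33 from Tlr2 and 0.59 from Tlr1. These distances are a description and carry no test. The 5 genes outside the lists whose profile was most like the mean of the members were L3mbtl3, Tnfrsf14, Mogs, Zfp516 and Sbno2, with root mean square differences of 0.01 to 0.02 over the 4 arrays among 23650 candidates. With 4 arrays many genes share such a shape, and 1795 candidates were within 0.2.

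Cell type markers moved with the same array. The 6 leukocyte markers, such as the pan-leukocyte phosphatase gene Ptprc, had a mean log2 signal of 2.40 on WT 2 and 2.78 on WT 3, against 0.78 on KO 2 and 3.10 on KO 3, and all 6 were lowest on KO 2. The 9 macrophage markers averaged 2.85, 3.61, 1.73 and 3.84 on the same arrays, and all 9 were lowest on KO 2, among them Adgre1, which encodes F4/80, at 2.28. Their signals summed on the linear scale, in multiples of the 75th percentile, to 95.6 and 157.6 on the WT arrays and to 43.4 and 190.1 on the KO arrays. All leukocyte and macrophage markers were well above background on every array.

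The 5 tested of the 7 neutrophil markers found on the array averaged -2.08 on WT 2 and -1.57 on WT 3, against -4.46 on KO 2 and -1.61 on KO 3. Of these Cxcr2, the chemokine receptor, was at -5.82 on KO 2 and at -1.89 to -2.66 on the other arrays. It was well above background on 3 of the 4 arrays. Only 3 of the 7 neutrophil markers were well above background on every array, so low values in this list are near the floor. In the opposite direction, the 10 cardiomyocyte markers averaged 6.69, 5.75, 7.61 and 4.93, and the 8 endothelial markers 2.25, 2.27, 2.81 and 1.95, each highest on KO 2. The 8 fibroblast markers averaged 5.96, 6.03, 5.12 and 5.89, and 7 of 8 were lowest on KO 2. The 5 monocyte markers averaged 2.16, 1.70, 0.49 and 2.36, and 4 of 5, among them Ccr2 at -1.20, were lowest on KO 2. Ly6c2, the brightest of them, was highest there at 6.80, and with it the summed linear signal of the 5 genes, at 113.7 against 58.1 to 78.5. The B cell list was highest on KO 3, at a mean of -0.55 against -3.42 to -2.16 elsewhere. The T cell list was lowest on KO 2 at -4.58, with 4 of its 5 genes well above background on every array. The dendritic cell list, of which Siglech was not well above background on any array, stayed between -3.11 and -2.89 over its 3 tested genes. In bulk tissue, fewer cells of a type and less RNA of a gene in each cell cannot be told apart, and the part of the marker shifts in the values of Tlr1, Tlr2, Tlr5, Tlr6, Cd14 and Myd88 was not tested.

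**Figure D3:**
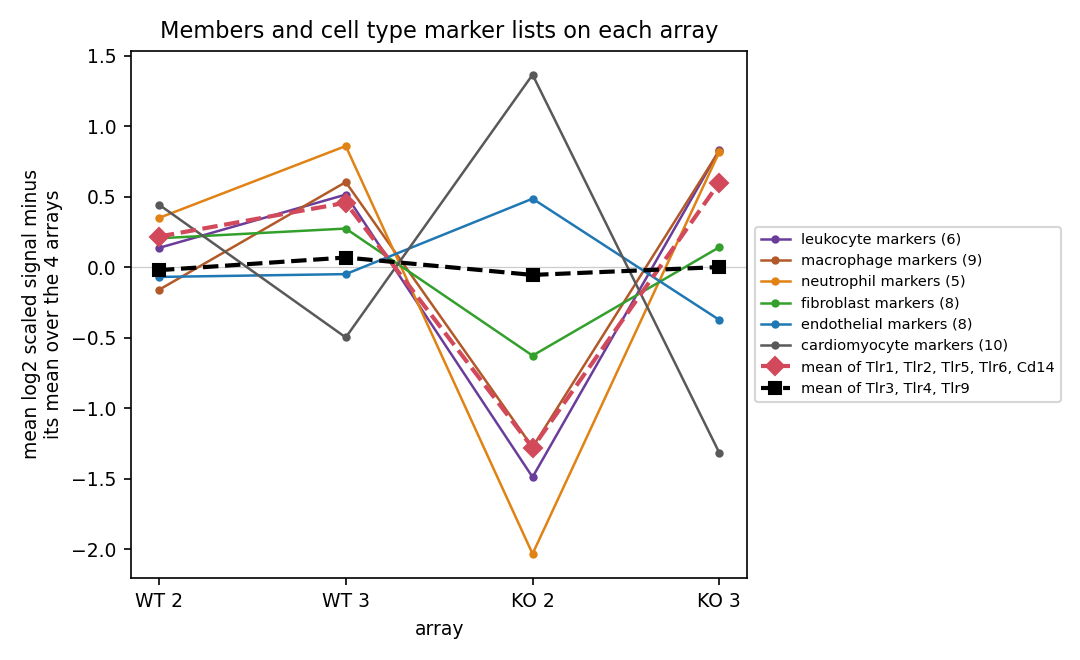
Mean log2 scaled signal of 6 cell type marker lists (solid lines, number of tested genes in brackets) and of the members named in the legend (dashed lines) on each array, each minus its own mean over the 4 arrays (vertical axis). Members were put in a dashed line by their own signals on these arrays, so the shape of each dashed line follows from that choice. Myd88 is in neither dashed line. Tlr1, Tlr2, Tlr5, Tlr6 and Cd14 dip on KO 2, as do the leukocyte, macrophage, neutrophil and fibroblast lists. The cardiomyocyte and endothelial lists peak there, and the averaged line of Tlr3, Tlr4 and Tlr9 stays within 0.1 of its mean. Tlr3 and Tlr4 are read here by their brighter probes alone, and the dimmer Tlr4 probe, not drawn, was highest on KO 2.

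The other genes of the pathway were read from lists of 83 genes, of which 80 were found on the array by name and 69 were tested. None of the 69 passed the adjusted threshold, and none had an unadjusted limma p under 0.05. In KO, 50 were lower and 19 higher, with a median difference of -0.27 on the log2 scale beside 0.02 over all tested genes, made of -0.52 within number 2 and 0.03 within number 3. Both KO arrays were below both WT arrays for 12 of the 69 (17.4%) and above them for 4 (5.80%), where 1972 and 2385 of the 18457 tested genes did so, and 47.4% of all tested genes were lower in KO.

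Of the other receptors, Tlr7, which senses single-stranded RNA, measured 0.09 on WT 2 and 1.25 on WT 3, against -1.16 on KO 2 and 1.32 on KO 3. It was low on both arrays numbered 2, lowest on KO 2 and highest on KO 3 as for Tlr1, and the genotypes overlapped. Tlr8 was too dim to test. Among 9 co-receptors and chaperones, 7 were lower and 2 higher. Cd180, a TLR-like surface protein of B cells and macrophages, measured -2.32, -1.57, -4.77 and -0.73 on WT 2, WT 3, KO 2 and KO 3, the widest swing with KO 2 in this list. Unc93b1, which carries TLR3, TLR7 and TLR9 to endosomes, was also lowest on KO 2, at 1.87 against 3.01 to 3.70 elsewhere. Ly96, which encodes the MD-2 partner of TLR4, had a difference of -0.23 ± 0.30 (SE), and Lbp, the lipopolysaccharide binding protein, of -0.21 ± 0.37.

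The core signalling genes had small median differences. Among 12 adaptors and kinases 8 were higher and 4 lower, with a median difference of 0.09. Traf6, the ubiquitin ligase downstream of the IRAK kinases, measured -1.95, -1.87, -1.94 and -1.85 on WT 2, WT 3, KO 2 and KO 3. Tirap, the adaptor that bridges TLR2 and TLR4 to MYD88, had a difference of -0.22 ± 0.31 (SE), Irak4, the first kinase of the chain, of -0.38 ± 0.33, and Ticam1 of 0.21 ± 0.20 with both KO arrays above both WT arrays. Of 11 transcription factors and I kappa B kinases 10 were lower in KO, including Nfkb1 at -0.35 ± 0.30 and Rela at -0.07 ± 0.26.

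Among the 12 inhibitors 7 were lower and 5 higher. Irak3, a kinase-like brake on the pathway in macrophages, had a difference of -0.52 ± 0.34 (SE) with both KO arrays below both WT arrays, and Nfkbia, which retains NF-kappa B in the cytoplasm, of 0.10 ± 0.25. The 12 tested transcripts that Toll signalling induces had the second lowest list median, at -0.59, and 11 of 12 were lower in KO. Il1b, which encodes interleukin-1 beta, measured 0.79 on WT 2 and -0.43 on WT 3, against -1.22 on KO 2 and -1.20 on KO 3. Neither KO array reached a WT array, with KO minus WT at -2.01 within number 2 and -0.77 within number 3, and the difference was -1.39 ± 0.49 (SE, limma adjusted p = 0.9999). Ccl5, a chemokine for T cells and monocytes, measured 3.20, 2.47, 0.07 and 1.85 on WT 2, WT 3, KO 2 and KO 3, a difference of -1.87 ± 0.73 (SE, limma adjusted p = 0.9999) that was negative within both numbers. These were the only tested pathway genes with a fold change over 2 whose genotypes did not overlap. The share of all tested genes that met both conditions was not computed, so this cannot be read as particular to the pathway. Il6 measured 0.15, 0.54, -1.69 and 0.54 on the same arrays and was low on KO 2 alone, while Tnf had a difference of -0.41 ± 0.34 (SE).

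Of the 8 endogenous ligands, molecules released in injury that engage TLR2 or TLR4, 6 were lower and 2 higher. S100a8 and S100a9, the subunits of the neutrophil protein calprotectin, had differences of -1.21 ± 1.18 and -1.21 ± 1.01 (SE), with KO 2 far below the other arrays and KO 3 level with WT 3. All 4 receptors of the interleukin-1 branch that shares Myd88 were lower, by a median of -0.68. Within number 3 the medians of the lists with more than 1 tested gene lay between -0.09 and 0.23, and within number 2 between -1.45 and 0.01.

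**Figure D4:**
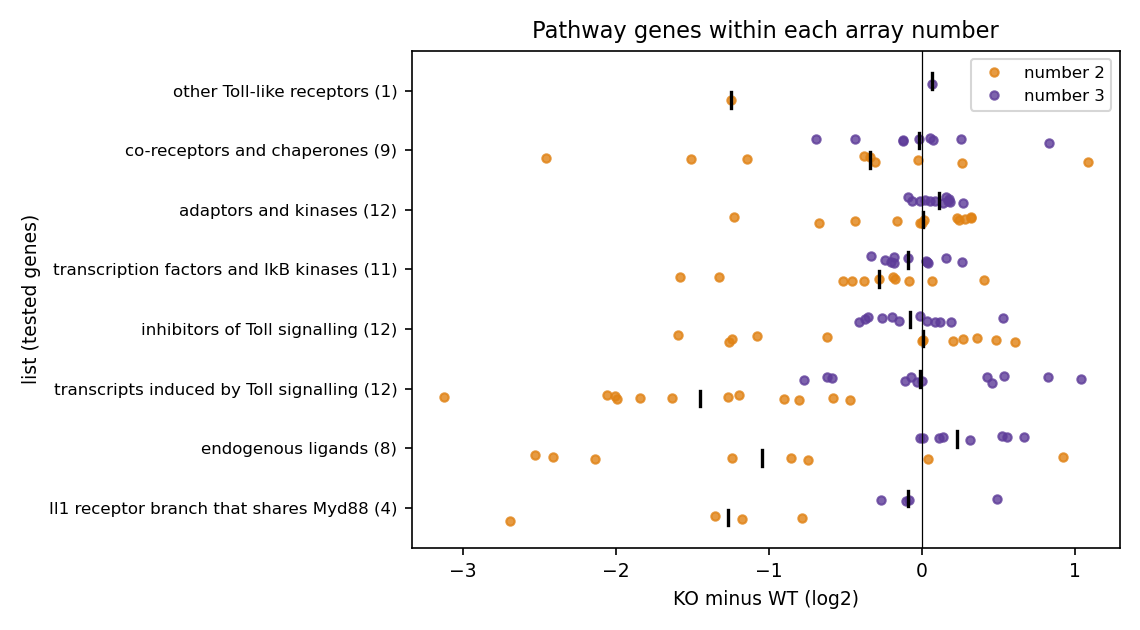
KO minus WT (horizontal axis, log2) of each tested pathway gene by list, within number 2 in orange and within number 3 in purple, with black ticks at the list medians. The induced transcripts, the ligands and the interleukin-1 branch reach far below 0 in number 2 and scatter around 0 in number 3, and the adaptors and kinases stay near 0 in both except for single genes.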

How the data were processed

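Left ventricular RNA of 2 WT and 2 KO samples was hybridized in 1 colour to 4 Agilent Whole Mouse Genome arrays. The authors deposited scanner intensity (Agilent Feature Extraction 10.7, per the labels) and a table of log2 values normalized in GeneSpring, which matched quantile-normalized log2 intensity and was used as an alternative. Probe positions come from the scanner files (mm9), and exons were not determined.

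Outlier spots were left out and spots of a probe averaged. The log2 processed intensity was shifted by each array's 75th percentile. Probes clearly over background on both WT or both KO arrays were tested with limma 3.58.1 (lmFit and eBayes, R 4.3.3), with Benjamini-Hochberg adjustment over 28304 probes. A call needed an adjusted p under 0.05 together with a fold change over 2. The script was tested on simulated data, where added changes had to be called only at a spread far smaller than that of these arrays. The simulation therefore does not show that changes could be called at the real spread. A gene's value is that of its tested probe with the highest mean. Group and number came from the titles. There was 1 slide and 1 scan day, with WT at positions 1 and 2 and KO at 3 and 4, so position and genotype cannot be told apart.

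The members and lists were chosen with earlier results of these data known. Named by rule were all members, Kdm5b, 15 pathway genes, list genes past a 2-fold change without overlap, marker genes at the ends of ranges and the 5 most alike genes. Tlr7, Tlr8, S100a8, S100a9 and single marker genes were named after their values were seen. Tlr11, Tlr12, Tlr13 and Ly6g were not found by name, and Adgre1 and Chil3 were matched through older symbols. Alternatives were normexp (offset 50), quantile and median scaling, other filters, the authors' values, a block on array number, leaving out each array, trend and robust eBayes, the methods' t-test and averaging a gene's probes. Precision is limited by the number of arrays.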

Additional observations from a re-analysis of the deposited data

Results flagged for a closer look

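For 8 of the 11 probes KO minus WT had opposite signs in the 2 array numbers, and the difference between the numbers was not tested because each holds 1 array of each genotype. The gap between the numbers, number 2 minus number 3 on the log2 scale, was -2.01 for Tlr1 (-1.91 and 0.102), -1.87 for Tlr6 (-1.63 and 0.24), -1.72 for Cd14 (-1.51 and 0.218), -1.3 for Tlr5 (-1.05 and 0.24) and -0.679 for Myd88 (-0.649 and 0.0296). For the dimmer Tlr4 probe, which was not well above background on KO 3, it was 1.98 (1.15 and -0.836). For Tlr9 and the brighter Tlr3 probe the gaps were small, at -0.054 (-0.0258 and 0.0282) and 0.146 (0.012 and -0.134). Tlr2, the brighter Tlr4 probe and the dimmer Tlr3 probe had a negative difference in both numbers. Signs differed between the numbers for 53.4% of all tested probes.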

How the results depend on the processing

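No member probe was called under any alternative computed, with 0 calls in each. Over all tested probes the count called was also 0 in each, so this result is not particular to the members. Of 144 alternative values for single probes, 127 kept their direction and 17 reversed. The other filters, the block, trend and robust eBayes and the t-test leave a probe's difference unchanged, so no direction could reverse under them. Each of the 11 probes reversed under at least 1 of the remaining alternatives. With 1 array left out, the difference ranged from -2.04 to 0.23 for Tlr1, -1.51 to 0.031 for Tlr2, -1.35 to 0.53 for Tlr5, -1.80 to 0.42 for Tlr6, -0.73 to 0.11 for Myd88 and -1.39 to 0.10 for Cd14, each lowest without KO 3 and positive without KO 2, the lowest array. It ranged from -0.93 (without KO 2) to 1.24 for the dimmer Tlr4 probe, from -0.16 to 0.043 for the brighter Tlr3 probe and from -0.055 to 0.057 for Tlr9. Normexp turned the dimmer Tlr3 probe to 0.096, the brighter to 0.17, Tlr5 to 0.15 and Tlr9 to -0.032. Tlr9 was -0.037 after quantile normalization and also with the authors' values, and averaging both Tlr4 probes gave 0.032. The cause was not tested. The count of probes past 2-fold was 0 with all arrays, 0 to 6 with 1 array left out, 6 on the arrays numbered 2 and 0 on those numbered 3. The count without overlap, 2 with all arrays, was 4 with normexp, 1 with quantile normalization, 1 with the median shift, 1 with the authors' values, 1 after averaging a gene's probes and 4 to 10 with 1 array left out, where a lone array has no range of its own. The share of all tested probes without overlap was not computed for these alternatives, so their counts cannot be read as particular to the members. The count lower in KO, 9, was 4 to 10 with 1 array left out (4 without KO 2) and 5 on the arrays numbered 3. Comparisons within numbers, and those of the count lower in KO, were added after seeing the data. With KO 3 left out, 7 member probes had an unadjusted limma p under 0.05, as had 7278 of all tested probes, with 0 adjusted calls, the lone array being assumed to vary like the others. With the methods' t-test 1 member probe, the brighter Tlr4 probe with its difference of -0.09, was under 0.05 unadjusted and 0 after Benjamini-Hochberg. Of all 28304 tested probes, 879 were under 0.05 unadjusted by that test. In the labels like-numbered arrays have only the number in common and there are 2 pairs, while Xist and Ddx3y separated the numbers and the deviations of like-numbered arrays correlated at 0.57, so whether the numbers pair the hearts was not settled. The replicate block left 0 member probes called, with Tlr1 at -0.90 and an unadjusted limma p of 0.209. Without scaling, 10 probes were lowest on KO 2, against 7, but KO 2 also had the lowest 75th percentile of processed signal. The unscaled count includes that array-wide gap, and the share of all tested probes lowest on KO 2 without scaling was not computed. A block for slide or scan was not possible with 1 slide and 1 day.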
